A study of Rattus norvegicus with 132 samples.

Results

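The brush border is the carpet of microvilli on the surface of the absorptive cells of the gut, and 10 genes of its last steps of digestion and uptake were followed here: Lct, Si, Mgam and Treh for the disaccharidases, Alpi and Akp3 for the intestinal alkaline phosphatases, Slc5a1, Slc2a2 and Slc2a5 for the sugar transporters, and Slc15a1 for the peptide transporter. They were taken by symbol, with no threshold on their values, and all 10 were found among the 21837 genes of the count tables. The tissue was colon or jejunum epithelium of Sprague Dawley rats, an outbred strain, sequenced as bulk RNA with 6 libraries in each of 22 groups. Rats of all groups but the non-irradiated one had 5 fractions of 4 Gy to the abdomen on days 0 to 4, and epithelium was collected on day 4 or day 7. The study asked what compound Kushen extracts, a herbal preparation, do to the gene expression of irradiated gut.

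In each tissue the groups were non-irradiated and non-treated rats, irradiated rats without treatment, irradiated rats given compound Kushen powder by mouth or its water vehicle, and irradiated rats given compound Kushen injection intraperitoneally or its vehicle, HEPES buffer (25 mM) with Tween-80 (0.25%). Each irradiated group was sampled at day 4 and at day 7. Neither age nor sex is stated by the sources used. The labels call the libraries biological replicates but name no individual rats, so p-values measure the spread between libraries. Libraries held 17196039 to 19800746 counts. The library names fall into 3 series: non-irradiated, untreated and orally treated groups have 3 libraries each of series 1 and series 2, and all injected groups are series 3. What the series stand for was not given.

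Enterocytes, the absorptive cells that cover the villi, carry disaccharidases and peptidases fixed to their apical membrane, which cut sugars and peptides next to the transporters that take up the products. Lactase splits milk sugar, sucrase-isomaltase and maltase-glucoamylase split sucrose and starch fragments, and trehalase splits trehalose. SGLT1, the product of Slc5a1, brings glucose and galactose in with sodium, GLUT5 (Slc2a5) brings in fructose, GLUT2 (Slc2a2) passes these sugars on, and PEPT1 (Slc15a1) takes up short peptides. These proteins are made as enterocytes mature on the way from crypt to villus, and they are abundant in the small intestine and scarce in healthy colon.

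The promoters of 4 members are printed because their genes carry the clearest patterns in what follows: Alpi and Akp3, paralogs that fell together between the days, Lct, which had the widest spread of the members in 7 of the 10 irradiated jejunum groups, and Si, whose promoter holds the most matches. Each run is the 200 bases upstream of the RefSeq start site in assembly GRCr8, 5′ to 3′ on the gene's strand, and capitals mark matches on either strand to any of 4 short motifs of intestinal transcription factors, with overlapping matches run together. For CDX factors the motif is TTTAT, for HNF1 it is the half-site GTTAAT, for the GATA family it is AGATAA, and for HNF4 it is CAAAGT. Alpi lies at chr9:95224781-95224980, minus strand, Akp3 at chr9:95252381-95252580, plus strand, Lct at chr13:42376873-42377072, minus strand, and Si at chr2:159884903-159885102, minus strand.
Alpi: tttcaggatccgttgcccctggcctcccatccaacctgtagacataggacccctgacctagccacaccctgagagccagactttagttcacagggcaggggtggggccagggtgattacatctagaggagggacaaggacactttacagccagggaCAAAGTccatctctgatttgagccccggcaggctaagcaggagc
Akp3: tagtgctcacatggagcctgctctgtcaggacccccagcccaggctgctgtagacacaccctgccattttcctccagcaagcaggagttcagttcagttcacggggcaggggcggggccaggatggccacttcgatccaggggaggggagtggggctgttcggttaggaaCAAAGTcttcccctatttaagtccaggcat
Lct: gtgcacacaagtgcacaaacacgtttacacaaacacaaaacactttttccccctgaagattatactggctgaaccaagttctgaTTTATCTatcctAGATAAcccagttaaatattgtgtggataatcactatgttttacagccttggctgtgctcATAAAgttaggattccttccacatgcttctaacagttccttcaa
Si: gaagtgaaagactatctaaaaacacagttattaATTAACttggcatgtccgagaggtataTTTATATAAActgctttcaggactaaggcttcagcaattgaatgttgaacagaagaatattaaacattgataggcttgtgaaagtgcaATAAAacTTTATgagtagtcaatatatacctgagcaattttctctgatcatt
The promoters of Alpi and Akp3, which stand on opposite strands of the same chromosome, each hold CAAAGT once near the start site. Over 33469 promoters searched across 250 bases upstream, CAAAGT occurred in 12.9%, and among the 9 members with a promoter in the table it occurred in Alpi and Akp3. TTTAT occurred in 39.3% of promoters and in Si, Mgam, Slc2a5 and Lct, AGATAA in 10.3% and in Mgam, Lct and Slc15a1, and GTTAAT in 6.45% and in Si. Within the 200 bases next to the start site, Slc2a2, Slc5a1 and Slc15a1 held no match to any of the motifs. A match describes the letters only.

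All 10 genes were higher in non-irradiated jejunum than in non-irradiated colon, and the 6 libraries of each tissue did not overlap for any of them. All 10 were called higher at an adjusted p under 0.05 (edgeR's quasi-likelihood test with Benjamini-Hochberg adjustment over all genes tested), beside 70.5% of genes called in either direction and 29.4% called higher, and beside 59.4% of genes with a mean of at least 1 CPM whose tissues did not overlap. The fit spans both tissues, and the labels do not say whether jejunum and colon libraries share rats. Lct, Si, Treh, Alpi, Akp3, Slc2a2 and Slc2a5 had group means of at most 0.51 CPM (counts-per-million, scaled by trimmed means of M-values) in all 11 colon groups, and their highest single colon library reached 1.76 CPM. The colon carried 2 members at a clear level. Mgam had a mean of 153 ± 10.3 CPM (SD, n = 6) in non-irradiated colon against 2116 ± 1378 CPM in jejunum, a 13.9-fold difference. Slc5a1 had 21.2 ± 2.57 CPM in colon (SD, n = 6) against 3378 ± 2139 CPM in jejunum, 168-fold higher. Together the 10 genes took 2.02% ± 0.57 (SD, n = 6) of all counts in non-irradiated jejunum and 0.0191% ± 0.00144 in non-irradiated colon. Hoxd10 and Hoxd13, genes of the distal gut, were at 0 in non-irradiated jejunum, but other colon markers were present there. Of the colonocyte list (absorptive cells of the colon), Slc26a3 had a mean of 271 CPM, Ceacam20 132 CPM and Car4 102 CPM. Aqp8 had 91.6 CPM and Ms4a12 20.7 CPM.

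In irradiated jejunum Slc2a2 and Slc2a5 were called lower at both days. Si and Slc5a1 were called lower at day 4 alone, and Lct, Treh, Alpi and Akp3 at day 7 alone. A call at a single day does not show that the days differ, and only Alpi and Akp3 were called between day 4 and day 7. The calls of Si, Slc5a1 and Treh were kept in only 5, 6 and 6 of 14 alternatives. At day 4 in untreated rats, 4 of 10 members were called lower and none higher, beside 44.0% of 12501 genes called in either direction, 25.0% higher and 18.9% lower. At day 7, 6 of 10 were called lower and none higher, beside 58.8% called, 31.4% higher and 27.4% lower. The day 4 share of members called is near that of all genes called in either direction, and 2 of the 10 day 4 estimates were positive. The members' median log2 change was -1.03 at day 4 and -1.59 at day 7, against medians of 0.05 and 0.02 over all genes tested. Both days are compared with the same non-irradiated libraries. In bulk tissue, fewer enterocytes and less RNA per enterocyte cannot be told apart. The summed share of the 10 genes went from 1.42 to 2.66% of counts in non-irradiated libraries to 0.527 to 1.90% at day 4 and 0.457 to 1.58% at day 7.

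**Figure D1:**
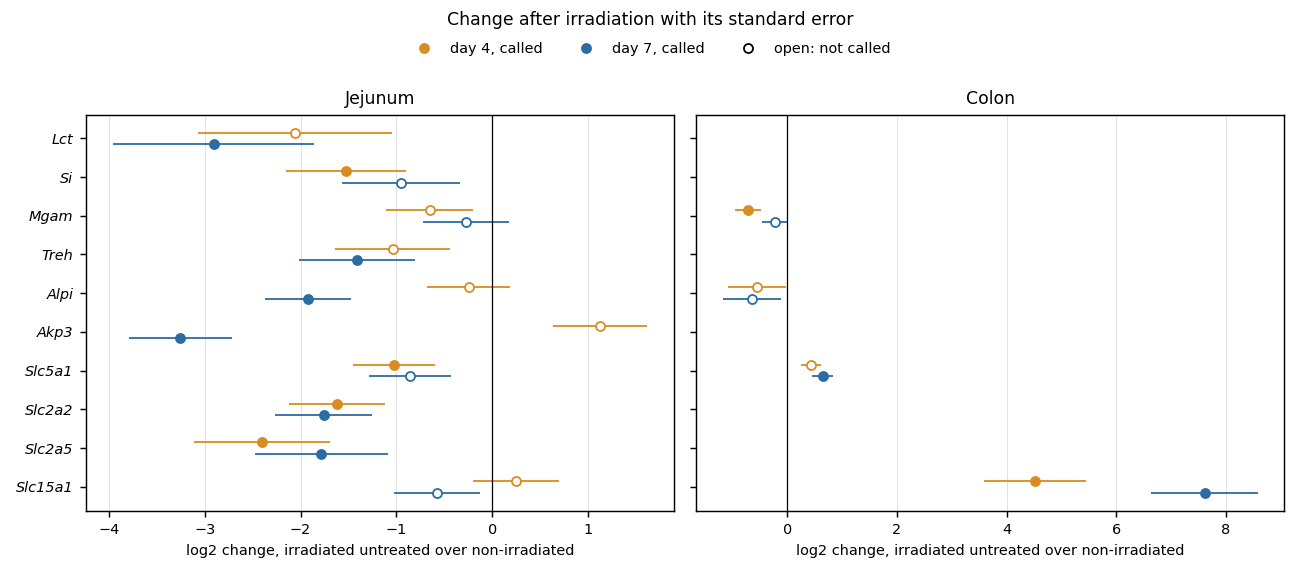
Log2 change of each member in irradiated untreated over non-irradiated rats (horizontal axis), in jejunum and colon, at day 4 and day 7; bars are standard errors and open points did not pass the test. In jejunum all 10 day 7 points lie below 0 and Akp3 is on opposite sides at the 2 days; in colon, where 4 members were tested, Slc15a1 stands at 4.52 and 7.61.

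Lct, the lactase gene, was uniform before irradiation, with a lowest, median and highest library of 4419, 4903 and 6013 CPM. At day 4 the untreated libraries ran from 75.9 over a median of 1062 to 3912 CPM, and at day 7 from 29.6 over 568 to 2836 CPM. Every irradiated library was thus under every non-irradiated one, while the irradiated libraries spread 51.6-fold at day 4 and 95.9-fold at day 7. The day 7 fall was 2.91 on the log2 scale (SE 1.05, 7.51-fold, edgeR adjusted p = 0.0180), and the groups did not overlap. At day 4 the change was -2.06 (SE 1.01) with an edgeR adjusted p of 0.0950, which did not pass. The day 7 call was lost without the libraries of replicate number 3, 5 or 6, and the changes within library series 1 and 2 were -2.02 and -4.07.

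Si, which encodes sucrase-isomaltase, had 4265, 6996 and 9607 CPM as lowest, median and highest non-irradiated library. At day 4 it had 483, 1932 and 7047 CPM and at day 7 it had 1019.9, 4051 and 5651 CPM. The groups overlapped at both days, and 1 day 4 library lay above the non-irradiated median. It fell by 1.53 on the log2 scale at day 4 (SE 0.62, edgeR adjusted p = 0.0441; -1.32 in series 1 and -1.80 in series 2), and this call was lost in 9 of 14 alternatives. At day 7 the change was -0.95 (SE 0.61, adjusted p = 0.178).

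Mgam and Treh differed from each other in how they spread. Mgam, for maltase-glucoamylase, had 712, 1993 and 3637 CPM without irradiation, 443, 1150.3 and 2108 CPM at day 4 and 619, 1784 and 2218 CPM at day 7. Its ranges overlapped widely and neither day was called, with log2 changes of -0.65 (SE 0.45, edgeR adjusted p = 0.244) and -0.27 (SE 0.45, adjusted p = 0.614). Treh, the trehalase gene, was the most uniform member without irradiation, at 1109, 1193 and 1322 CPM. It had 173, 485 and 1480.0 CPM at day 4 and 101, 413 and 1323 CPM at day 7, so that 1 library at each day was above the non-irradiated range and most were far under it. It fell by 1.41 at day 7 (SE 0.61, edgeR adjusted p = 0.0441; -0.72 in series 1 and -2.22 in series 2), a call lost in 8 of 14 alternatives, and its day 4 change was -1.04 (SE 0.60, adjusted p = 0.157).

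The 2 alkaline phosphatase genes followed another course. The enzymes remove phosphate from lipids and from bacterial endotoxin at the brush border. Because the treatment of reads shared by paralogs was not given, the split of counts between Alpi and Akp3 is uncertain. Alpi had 7316, 8275 and 9467 CPM without irradiation and 2875, 6876 and 12394 CPM at day 4, with overlapping groups and a log2 change of -0.25 (SE 0.43, edgeR adjusted p = 0.664). At day 7 it had 665, 2174 and 4559 CPM, all under the non-irradiated libraries, a fall of 1.92 (SE 0.45, 3.79-fold, edgeR adjusted p = 0.00048; -1.53 in series 1 and -2.43 in series 2). Akp3 had 335, 864 and 1179.9 CPM without irradiation and 559, 1993 and 2829.9 CPM at day 4. Its day 4 log2 change of 1.12 (SE 0.49) had an edgeR adjusted p of 0.0621 and did not pass, while DESeq2 gave 0.037. At day 7 Akp3 had 17.9, 96.5 and 180.1 CPM, every library under the lowest non-irradiated one. It fell by 3.26 (SE 0.54, 9.56-fold, edgeR adjusted p = 6.093e-06; -2.09 in series 1 and -4.39 in series 2), and no alternative tried removed this call.

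Among the sugar transporters, the exit and fructose routes passed at both days. Slc2a2 (GLUT2) had 795, 991 and 1509 CPM without irradiation, 102, 268 and 766 CPM at day 4 and 96.4, 348 and 559 CPM at day 7. No irradiated library reached the lowest non-irradiated one. It fell by 1.62 at day 4 (SE 0.50, 3.08-fold, edgeR adjusted p = 0.00882; -1.47 in series 1 and -1.82 in series 2) and by 1.76 at day 7 (SE 0.50, 3.39-fold, adjusted p = 0.0033; -1.67 and -1.88). Slc2a5 (GLUT5) had 116, 299 and 614 CPM without irradiation, 6.07, 27.4 and 203 CPM at day 4 and 22.5, 91.6 and 132 CPM at day 7. The highest irradiated libraries overlapped the lowest non-irradiated ones at both days. It fell by 2.41 at day 4 (SE 0.71, 5.30-fold, edgeR adjusted p = 0.00648; -2.28 in series 1 and -2.70 in series 2) and by 1.78 at day 7 (SE 0.70, 3.44-fold, adjusted p = 0.0278; -2.31 and -1.19), the day 7 call being lost in 6 of 14 alternatives.

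Slc5a1 (SGLT1), the entry route for glucose, had 1382, 2978 and 5927 CPM without irradiation, 422, 1336 and 3191 CPM at day 4 and 790, 1965 and 2301 CPM at day 7. Both irradiated ranges overlapped the lower, series 2 libraries of the non-irradiated group. It fell by 1.03 at day 4 (SE 0.43, edgeR adjusted p = 0.0487; -1.40 in series 1 and -0.47 in series 2), a call lost in 8 of 14 alternatives, and the day 7 change of -0.86 (SE 0.43, adjusted p = 0.0801) did not pass. Slc15a1 (PEPT1) was not called at either day. It had 1031, 1803 and 3167 CPM without irradiation, 508, 2196 and 3711 CPM at day 4 and 493, 1309.9 and 2216 CPM at day 7. The log2 changes were 0.25 (95% interval -0.63 to 1.13) and -0.58 (-1.45 to 0.30), so that a fall past 2-fold at day 4 lies outside the interval.

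DESeq2 called 5 members at day 4 and 7 at day 7, beside 5793 and 7667 of the 12501 genes tested. Groups without overlap were found for 2 members at day 4 and for 4 at day 7, beside 10.2% and 28.5% of genes with a mean of at least 1 CPM. Within library series 1 alone, with 3 libraries a group, none of the day 4 changes and only that of Akp3 at day 7 passed. Series 2 alone gave 2 and 5 calls. The share of all genes called within a single series is not given here, so these counts are not set against it.

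**Figure D2:**
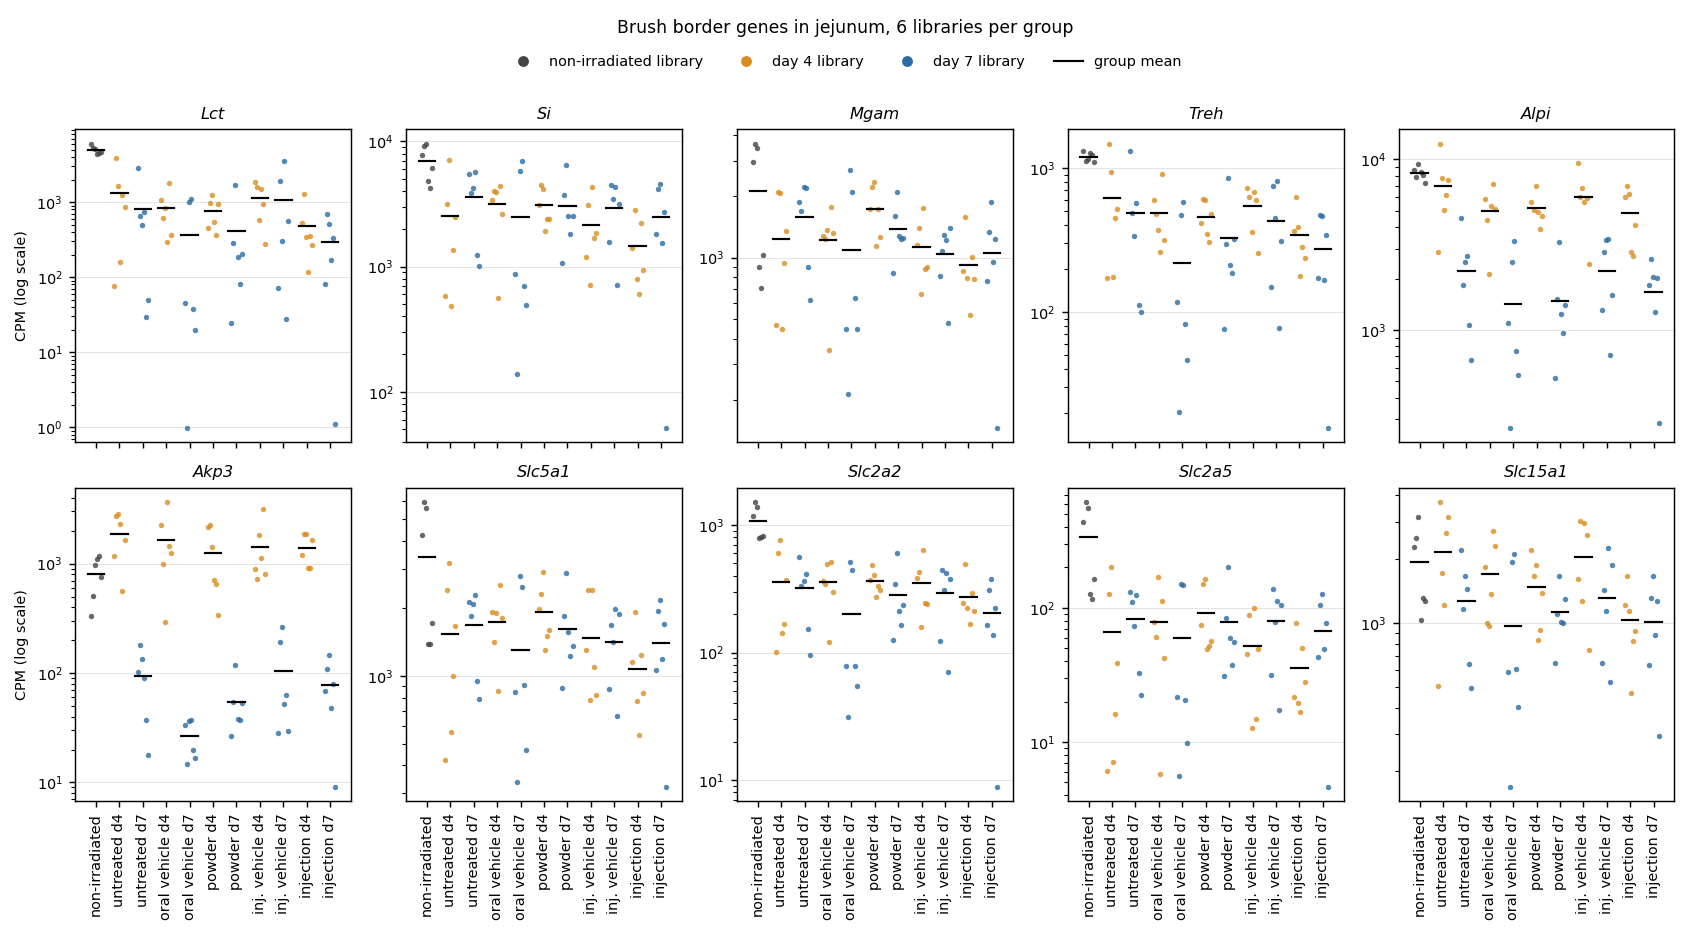
CPM of each of the 10 genes in jejunum on a log axis, 1 point per library, 6 libraries per group in 11 groups, with the group mean as a bar. The non-irradiated mean is the highest for 8 genes, Akp3 separates by day in every irradiated group, and Lct runs down to 0.980 CPM in the day 7 oral vehicle group.

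The library series divided the non-irradiated jejunum itself. The 7 members Lct, Si, Mgam, Slc5a1, Slc2a2, Slc2a5 and Slc15a1, were higher in all 3 series 1 libraries than in all 3 series 2 libraries. Among all genes, 49.6% had series that did not overlap in that group. The ratio of the series means was 3.82 for Mgam (3354 against 878 CPM) and 3.96 for Slc2a5 (535 against 135 CPM). Slc5a1 had series means of 5256 and 1500.3 CPM. The ratio was 1.00 for Treh, 1.09 for Alpi and 0.60 for Akp3, the last 3 with overlapping libraries. The goblet cell list (8 genes of mucus-secreting cells) moved with the series too, with sums of 12681 to 13611 CPM in series 1 and 1553 to 2325 CPM in series 2. The mitochondrial share was 5.82, 6.69 and 7.25% in the series 1 libraries and 20.6, 12.5 and 20.9% in those of series 2. In the powder group at day 4, 8 of 10 members also had series without overlap, all higher in series 1, beside 26.3% of all genes. The size of the series gap differed between groups for some members. For Mgam the ratio was 1.12 and 1.05 with the oral vehicle at day 4 and day 7. For Akp3 it was 3.43 with the powder at day 4. For Si it was 1.74 both without irradiation and with the powder at day 4. The fits of the non-irradiated, untreated and orally treated libraries carry the library series as a term shared by all groups of a tissue. Such a term cannot remove a gap that differs between groups. The part of the series in any single gene was not tested.

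**Figure D3:**
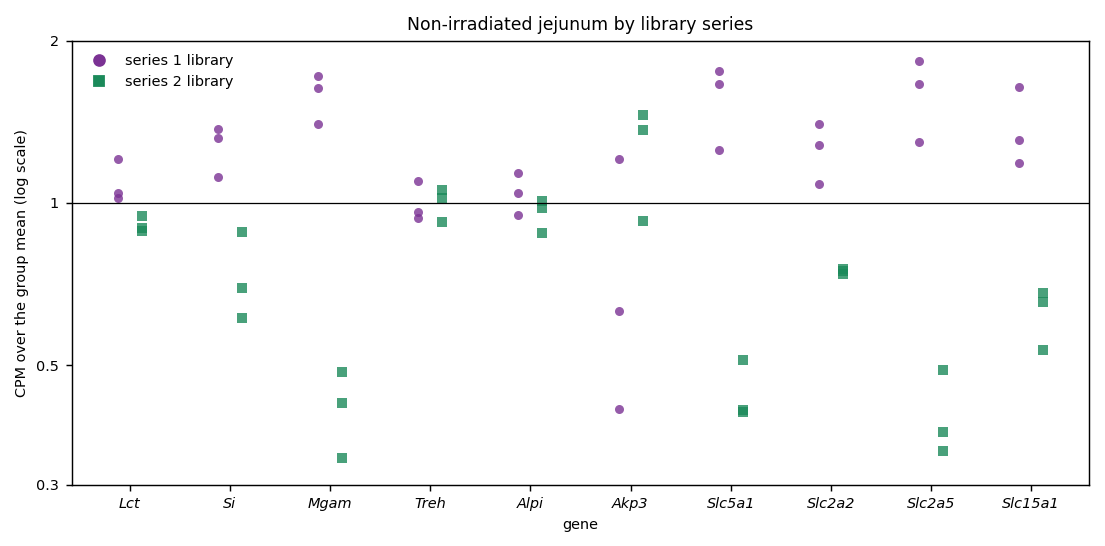
Level of each gene in the 6 non-irradiated jejunum libraries, divided by the group mean (log axis), with series 1 as circles and series 2 as squares. The series separate for 7 genes, most widely for Slc2a5, Mgam and Slc5a1, and mix for Treh, Alpi and Akp3.

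Other genes of the same cells give the setting. Of 13 microvillus genes, such as the actin bundler Vil1 and the scaffold Pdzk1, 8 were called lower at each day and none higher, with median log2 changes of -0.67 and -0.75. Vil1 fell by 0.95 at day 4 and Pdzk1 by 1.49 at day 7. Of 12 brush border peptidases, 2 were called lower at day 4 and 5 at day 7, none higher, with medians of -0.59 and -0.93. Dpp4 fell by 0.76 at day 4, and Mep1a, a meprin subunit, fell by 1.82 at day 7. Of 19 other nutrient transporters, 2 were called higher and 4 lower at day 4, and 3 higher and 5 lower at day 7. Slc6a20, an imino acid transporter, fell by 3.10 and 2.28 on the log2 scale, and Slc28a2, a nucleoside transporter, rose by 1.98 at day 4.

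Enzymes that use the absorbed sugar also moved, in both directions. Of 11 sugar metabolism genes tested, 2 were called higher and 7 lower at day 4, and 2 higher and 6 lower at day 7. Pck1, of gluconeogenesis, had log2 changes of -2.31 and -2.34, and Galt, of galactose use, fell by 2.11 at day 4. The hexokinase genes rose, Hk2 by 2.20 at day 4 and Hk1 by 2.04 at day 7. Of 15 enterocyte transcription factors, 1 was called higher and 5 lower at day 4, and 3 higher and 7 lower at day 7. Cdx1 fell by 1.14 and Hnf4a by 0.70 at day 4, while Isx, the 1 called higher, rose by 0.90. Gata6 fell by 1.41 at day 7.

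Markers of other cells moved with the same contrast. Crypt proliferation genes were called higher for 4 of 7 at day 4 and 7 of 7 at day 7, their summed level going from 52.2 to 98.4 CPM without irradiation to 37.7 to 394 CPM at day 4 and 226 to 745 CPM at day 7. Goblet cell genes were called lower for 6 of 8 at day 4 and for 5 of 8 at day 7, with 1 higher at day 7. Immune genes were called lower for 4 of 6 tested and higher for 1 of 6 at each day, with sums of 4.71 to 49.1 CPM without irradiation, 3.38 to 17.9 CPM at day 4 and 2.33 to 11.5 CPM at day 7. S100a9, a neutrophil gene of that list, was at 0 without irradiation. Stroma genes summed to 0.523 to 23.2, 7.01 to 23.5 and 6.48 to 38.8 CPM in the same order, with 2 and 1 of 7 called higher. Of 5 pan-epithelial genes, 0 were called at day 4 and 1 lower at day 7, and their sums stayed between 13059 and 26143 CPM in all 3 groups. Mitochondrial transcripts took 5.82 to 20.9% of counts without irradiation, 7.19 to 23.5% at day 4 and 3.66 to 8.70% at day 7. The part of these shifts in the falls of the 10 genes was not tested.

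Alpi and Akp3 were lower at day 7 than at day 4 in every irradiated group of the jejunum, and the days did not overlap for Akp3 in any of them. Among genes with a mean of at least 1 CPM, 7.84% did not overlap between the days in untreated rats. That share was 3.87% with the oral vehicle, 25.2% with the powder, 9.74% with the injected vehicle and 17.6% with the injection. In each of the 5 irradiated groups 2 of the 10 members were called between day 7 and day 4, always Alpi and Akp3 and always lower at day 7. The share of all genes called in either direction was 41.0% in untreated rats (20.3% higher, 20.7% lower), 25.7% with the oral vehicle and 36.9% with the powder. It was 50.6% with the injected vehicle and 41.0% with the injection. The share called lower was 20.7, 14.4, 18.6, 25.2 and 21.2% in the same order of groups. The count of 2 of 10 members called lower is near these shares. Other measures moved with the days. Crypt proliferation genes were called higher for 7, 2, 4, 7 and 7 of 7 in the same order of groups, and goblet cell genes for 6, 0, 0, 2 and 0 of 8. The mean mitochondrial share went from 12.7 to 5.39%, 8.78 to 5.40%, 9.08 to 5.12%, 18.5 to 6.24% and 21.8 to 6.91% of counts. Their part in the falls was not tested. Akp3 went from a mean of 1884 to 93.6 CPM in untreated rats, a fall of 4.38 on the log2 scale (SE 0.56, 20.9-fold, edgeR adjusted p = 7.336e-07). With the oral vehicle it went from a range of 296 to 3646 CPM to one of 14.7 to 37.3 CPM, a log2 change of -6.03 (SE 0.60, 65.2-fold, edgeR adjusted p = 5.881e-09). With the powder the ranges were 341 to 2275 and 26.4 to 118 CPM, a fall of 4.43 (SE 0.56, adjusted p = 3.031e-07). In the injected groups the ranges of Akp3 were 722 to 3154 and 28.3 to 265 CPM with the injected vehicle, a fall of 3.76 (SE 0.62, edgeR adjusted p = 0.000132), and 916 to 1868 and 9.16 to 147 CPM with the injection, a fall of 4.19 (SE 0.63, adjusted p = 6.549e-05).

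Alpi fell by less in each group. Its means went from 6977 to 2229 CPM in untreated rats, a fall of 1.68 (SE 0.44, 3.20-fold, edgeR adjusted p = 0.00323). They went from 5016 to 1416 CPM with the oral vehicle, a fall of 1.83 (SE 0.44, adjusted p = 0.00335), and from 5187 to 1487 CPM with the powder, a fall of 1.80 (SE 0.44, adjusted p = 0.00234). Day 4 and day 7 libraries overlapped in the untreated and both vehicle groups and did not overlap in the powder and injection groups. The share of all genes without overlap was also highest with the powder and the injection, at 25.2 and 17.6%. It was 7.84% in untreated rats, 3.87% with the oral vehicle and 9.74% with the injected vehicle. In the injected vehicle the means were 6061 and 2211 CPM, a fall of 1.45 (SE 0.43, edgeR adjusted p = 0.00788), a call lost without the libraries of replicate number 1. In the injection group they were 4828 and 1678 CPM, a fall of 1.52 (SE 0.43, adjusted p = 0.00806). In the groups of both library series, the changes were -1.35 in series 1 and -2.10 in series 2 without treatment, -1.68 and -1.93 with the oral vehicle, and -1.72 and -1.88 with the powder, and each series 1 value, on 3 libraries a day, missed the threshold. Akp3 passed within each series in all 3 of these groups, with changes of -6.42 to -3.70. The difference between Alpi and Akp3 in size of fall was not tested.

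**Figure D4:**
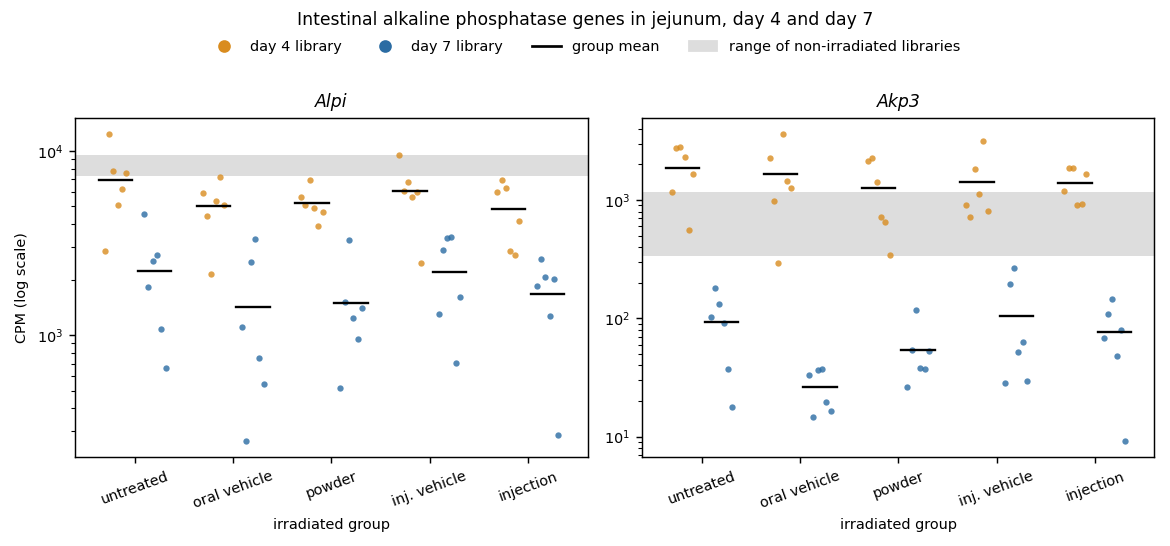
CPM of Alpi and Akp3 in jejunum (log axis) in the 5 irradiated groups, 6 libraries per day, with group means as bars and the range of the non-irradiated libraries shaded. All day 7 libraries of Akp3 are at or under 265 CPM and lie under the non-irradiated range of 335 to 1179.9 CPM, while its day 4 libraries run from 296 to 3646 CPM.

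The other 8 members were not called between days in any of the 5 groups. The spread between libraries of a group was wider than without irradiation in all 10 irradiated groups for Lct, Treh and Alpi. It was wider in 2 of these groups for Mgam and in 3 for Slc5a1, whose non-irradiated libraries already spread by series. The standard deviation of log2 CPM of Lct was 0.17 without irradiation, 2.16 and 2.52 in untreated rats at day 4 and 7, 3.76 with the oral vehicle at day 7 and 3.39 with the injection at day 7. The members' median standard deviation was 0.57 without irradiation, 1.18 and 1.04 in the untreated groups, 1.54 with the oral vehicle at day 7 and 0.46 with the powder at day 4. The median over all genes in those groups was 0.26, 0.41, 0.31, 0.30 and 0.20. In 3 groups, all at day 7, a single library was the lowest for all 10 members: replicate 2 of the oral vehicle, replicate 1 of the powder and replicate 6 of the injection. In the powder group at day 7, replicate 3 was the highest for all 10.

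Over the 66 jejunum libraries some members ran in parallel, as a description without a test, since these points share groups, library series and scaling. Lct and Treh had a Pearson correlation of log2 CPM of 0.98, and of 0.98 after group means were removed. Mgam and Slc5a1 had 0.94, and 0.96 within groups. Si and Slc2a2 had 0.93, and 0.97 within groups. Alpi and Akp3 had 0.86, which was 0.66 within groups, and Akp3 was least like Slc2a5, at 0.12. Of 9188 genes, the most like Lct were RGD1565355 (0.98), Slc28a1 (0.98), a nucleoside transporter, and Naaladl1 (0.97), a peptidase. Alpi was most like Mep1a (0.99), Ms4a10 (0.99) and Prap1 (0.98). Among the genes most like Slc15a1 was Slc6a19 (0.92), a neutral amino acid transporter. Akp3 was most like Cd74 (0.92), the invariant chain of antigen presentation, and Pxdc1 (0.92), with 0.53 and 0.58 within groups.

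No treatment changed a member in jejunum past the test. With the powder against its vehicle, edgeR called 0 of 10 at day 4 (0.008% of all genes called) and 0 of 10 at day 7 (0.008%), DESeq2 called 0 at both days, and 0 and 1 had an unadjusted p under 0.05. The powder's log2 differences ran from -0.57 for Akp3 to 0.46 for Mgam at day 4, with standard errors of 0.42 to 0.97. At day 7 Akp3 had the highest, 1.02 (95% interval 0.06 to 1.99, edgeR adjusted p = 0.9997), with means of 54.5 and 26.3 CPM, and overlapping libraries. For Lct the day 7 interval ran from -2.06 to 1.82, so that changes of 3-fold in either direction lie within it.

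With the injection against its vehicle, edgeR called 0 of 10 at day 4 (0% of all genes) and 0 of 10 at day 7 (0%), DESeq2 called 0 at both days, and 1 and 0 had an unadjusted p under 0.05. That gene was Slc15a1, with 1037 ± 405 CPM against 2038 ± 956 CPM (SD, n = 6 each) and a log2 difference of -0.95 (95% interval -1.75 to -0.14, edgeR adjusted p = 0.580). All 10 members had negative estimates at day 4. At day 7 Lct had the most negative, -1.82 (95% interval -3.73 to 0.09, adjusted p = 0.998), and replicate 6, the lowest library for all 10 members, is in that group. The oral vehicle against no treatment gave 0 of 10 calls at day 4 (0% of all genes) and at day 7 (0.008%), and DESeq2 gave 0 at both days. All 10 day 7 estimates were negative, and Akp3, the 1 gene with an unadjusted p under 0.05, had -1.74 (95% interval -2.73 to -0.75, edgeR adjusted p = 0.729).

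In the colon Slc15a1, nearly silent without irradiation, rose after it. The non-irradiated libraries had 0.142, 0.281 and 0.926 CPM as lowest, median and highest, 46 counts in all 6. At day 4 the untreated libraries had 0.698, 6.94 and 33.3 CPM, and at day 7 they had 36.9, 64.0 and 107 CPM. Some day 4 libraries lay within the non-irradiated range, and at day 7 every library lay above it. Of the 4 members tested in colon (Mgam, Alpi, Slc5a1 and Slc15a1), 1 was called higher and 1 lower at day 4, beside 46.9% of 13306 genes called (24.6% higher, 22.3% lower), and 2 were called higher at day 7, beside 63.6% (32.9% higher, 30.8% lower). With so few counts before irradiation, Slc15a1 passed the filter of low counts only through irradiated libraries and could hardly be called lower. The counts of members called higher in colon lean on it. Slc15a1 rose by 4.52 on the log2 scale at day 4 (SE 0.93, 22.9-fold, edgeR adjusted p = 0.00021; 2.17 in series 1, where the call was lost, and 6.00 in series 2). At day 7 it rose by 7.61 (SE 0.97, 195-fold, edgeR adjusted p = 3.426e-08; 7.38 in series 1 and 7.48 in series 2). The members' median changes were -0.06 and 0.21 beside 0.02 over all genes at both days.

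**Figure D5:**
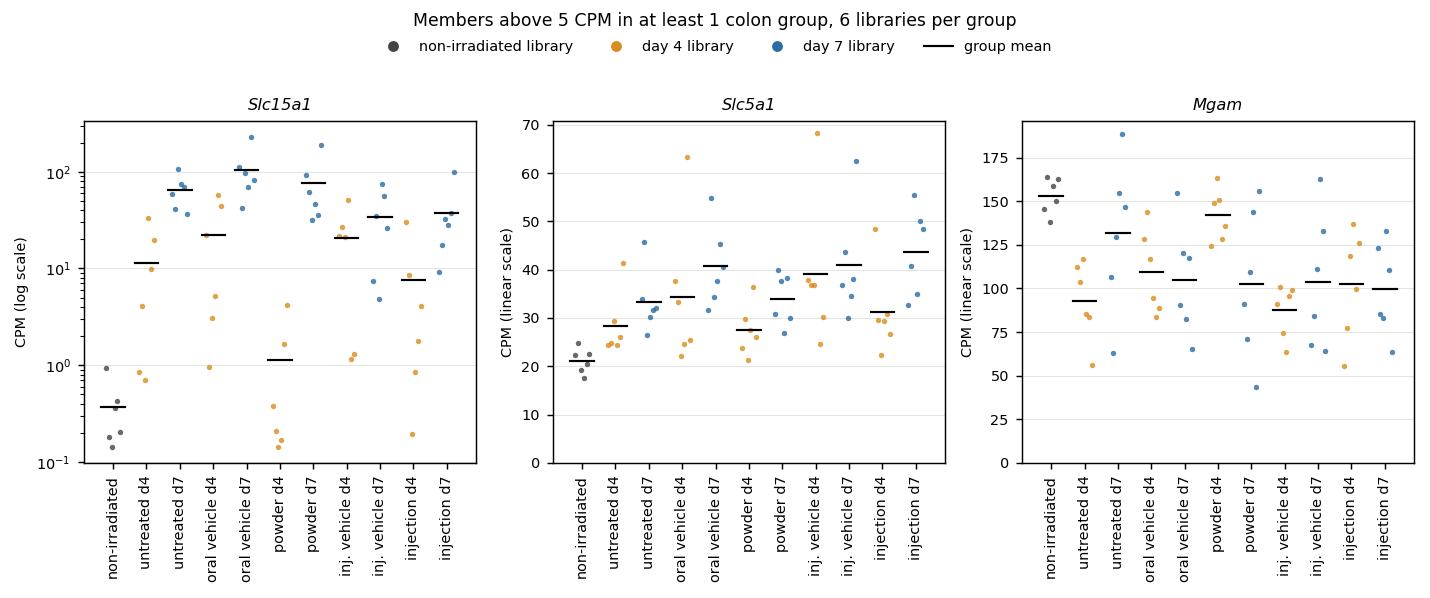
CPM in colon of the 3 members above 5 CPM in at least 1 group, Slc15a1 on a log axis and Slc5a1 and Mgam on linear axes from 0, 6 libraries per group with group means as bars. Slc15a1 is under 1 CPM in all non-irradiated libraries and between 36.9 and 107 CPM in untreated libraries at day 7, while the powder group at day 4 runs from 0.141 to 4.22 CPM.

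Alpi, at means of 0.51, 0.34 and 0.33 CPM in the 3 colon groups, was not called (log2 changes -0.56 and -0.65, SE 0.53 at both days). Slc5a1 had 17.6, 21.4 and 24.8 CPM without irradiation, 24.4, 25.5 and 41.4 CPM at day 4 and 26.4, 31.9 and 45.8 CPM at day 7. It rose by 0.65 at day 7 (SE 0.19, edgeR adjusted p = 0.00343), with groups that did not overlap. The day 7 change was 0.67 in series 1 and 0.64 in series 2, where the call was lost. Its day 4 difference of 0.43 (SE 0.19, edgeR adjusted p = 0.0581) did not pass. Mgam had 138, 154 and 164 CPM without irradiation and 56.0, 94.5 and 117 CPM at day 4, all lower, a fall of 0.72 (SE 0.23, edgeR adjusted p = 0.0118; -0.41 in series 1 and -1.02 in series 2), a call lost within series 1, without the libraries of replicate number 6 and with the mitochondrial share as covariate. At day 7 Mgam had 63.3, 138 and 189 CPM, which spanned the non-irradiated range, and was not called (-0.22, SE 0.23). Groups without overlap were found for 1 of the 4 members at day 4 and for 2 at day 7, beside 28.2% and 44.8% of genes with a mean of at least 1 CPM.

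Markers of other cells and RNA measures moved in the same colon libraries. Mitochondrial transcripts took 10.4 to 14.2% of counts without irradiation, 7.80 to 10.8% at day 4 and 3.24 to 4.82% at day 7. With that share as a covariate, the day 7 change of Slc15a1 was 4.43 with an edgeR adjusted p of 0.184, and that of Slc5a1 was -0.37, of opposite sign. The share did not overlap between these groups at day 7, so this fit cannot set it well apart from irradiation. No conclusion is drawn from it. Crypt proliferation genes were called higher for 4 of 7 at day 4 and 7 of 7 at day 7, with sums of 132 to 251 CPM without irradiation, 254 to 388 CPM at day 4 and 528 to 879 CPM at day 7. Goblet cell genes were called higher for 1 and lower for 1 of 8 at day 4 and lower for 3 of 8 at day 7, with sums of 2956 to 8457, 2229 to 15891 and 2051 to 3339 CPM. Of 7 stroma genes 2 were called higher at each day. Of the colonocyte list, Car1 fell, with log2 changes of -2.08 and -3.55, while Ms4a12 rose by 0.77 at day 7. No other gene of that list was called at either day. Immune genes summed to 6.74 to 36.8 CPM without irradiation, 15.1 to 101 CPM at day 4 and 21.3 to 46.1 CPM at day 7, with 3 of 7 called higher at each day and 1 and 4 lower. The proximal small intestine list summed to 1843 to 3138, 394 to 1310.2 and 278 to 499.8 CPM in the same order, a fall carried by Fabp1, which binds fatty acids, with means of 1912, 356 and 17.4 CPM. Of its 6 genes tested, 4 were called higher and 1 lower at day 4 (median log2 change 0.97), and 3 higher and 1 lower at day 7 (median 0.53). The part of these shifts in the changes of the members was not tested. The 7 members that are near silent in colon stayed at or under 1.76 CPM in every colon library, those with the most Slc15a1 included. Of 11 brush border peptidases, 5 were called higher and 2 lower at day 4, and 4 higher and 3 lower at day 7, with Ggt1, a glutamyl transferase, rising by 2.77 and 2.97 and Ace falling by 1.70 and 4.83. Of 15 other nutrient transporters, 5 were called higher and 3 lower at day 4, and 3 higher and 5 lower at day 7, with the amino acid transporter Slc7a8 rising by 1.97 and 2.83.

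The 1 treatment contrast in which a member passed was the powder at day 4 in colon. Slc15a1 had 0.949, 13.8 and 58.1 CPM as lowest, median and highest library with the oral vehicle and 0.141, 0.296 and 4.22 CPM with the powder. Of the 6 powder libraries, 4 were under the lowest vehicle library, and 2 lay within the vehicle range. Slc15a1 was 4.29 lower on the log2 scale (log2 difference -4.29, SE 0.81, 19.5-fold, edgeR adjusted p = 0.0018), the 1 of 4 members called, beside 11.8% of all genes called, 4.89% higher and 6.9% lower. The difference was -5.18 within series 1 and -4.15 within series 2, with adjusted p of 0.0636 and 0.0674 on 3 libraries a group. Without each replicate number in turn it stayed between -5.02 and -3.94 and was called each time. The vehicle group itself did not differ from untreated rats past the test (log2 1.15, 95% interval -0.18 to 2.48, edgeR adjusted p = 0.9999), and edgeR and DESeq2 called 0 of 4 members there, with 0 at an unadjusted p under 0.05 (0% of all genes called by edgeR). The same held at day 7, where edgeR called 0.00752% of all genes and Slc15a1 had a log2 difference of 0.53 (95% interval -0.76 to 1.82).

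Of the other cell lists in this contrast, 3 of 8 goblet cell genes were called higher, with sums of 4469 to 7026 CPM in the vehicle libraries and 4849 to 16166 CPM in the powder libraries. The sum of the immune genes was 9.67 to 107 CPM in the vehicle libraries and 5.60 to 26.7 CPM in the powder libraries, with 1 of 7 called lower. The part of either list in the difference was not tested. At day 7 the powder group had 31.8, 54.2 and 189 CPM of Slc15a1 and the vehicle group 42.3, 89.7 and 231 CPM, which overlapped (log2 -0.46, 95% interval -1.74 to 0.82, edgeR adjusted p = 0.9998), and 0 of 4 members were called by edgeR (0% of all genes) or DESeq2, with 0 at an unadjusted p under 0.05. The test of the difference between the days, added after these values were seen, gave 3.83 (95% interval 1.83 to 5.83) with an edgeR adjusted p of 0.0961 and did not pass. DESeq2 gave 3.98 with an adjusted p of 0.026.

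Between the days, Slc15a1 rose in colon in 3 of the 5 irradiated groups past the test. The rise was 3.09 in untreated rats (SE 0.74, edgeR adjusted p = 0.00126), 2.47 with the oral vehicle (SE 0.70, adjusted p = 0.00792) and 6.30 with the powder (SE 0.87, adjusted p = 8.49e-07). Within series 1 and series 2 the rises were 5.20 and 1.48 without treatment, 3.21 and 1.78 with the oral vehicle, and 7.91 and 5.47 with the powder, and the series 2 values of the first 2 groups missed the threshold. Slc15a1 was the 1 of 4 members called in each, beside 36.5% (18.0% higher), 27.4% (12.7%) and 49.3% (26.2%) of all genes. With the injected vehicle the day 4 and day 7 libraries had medians of 21.3 and 30.7 CPM and the difference was 0.73 (SE 0.91, edgeR adjusted p = 0.579). With the injection they had medians of 2.96 and 30.4 CPM and the difference was 2.26 (SE 0.95, adjusted p = 0.0612). In these 2 groups edgeR called 0 of the 3 members tested, beside 27.4% and 40.8% of all genes, with 0 and 1 at an unadjusted p under 0.05 and 0 and 1 called by DESeq2. The injection against its vehicle gave 0 of 3 calls at both days by edgeR and DESeq2 (0% of all genes), with 0 at an unadjusted p under 0.05, and the differences of Slc15a1 were -1.41 (95% interval -3.24 to 0.42) and 0.12 (-1.65 to 1.88).

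The response to irradiation differed between the tissues for 2 of 10 members at each day, beside 21.8% of all genes at day 4 and 39.6% at day 7. The members' count was thus near the share of all genes at day 4 and below it at day 7. For Slc15a1 the jejunum change minus the colon change was -4.19 at day 4 (SE 0.98, edgeR adjusted p = 0.00116) and -8.08 at day 7 (SE 1.01, adjusted p = 2.093e-09), with -2.54 and -5.02 in series 1 and 2 at day 4 and -7.92 and -8.01 at day 7. For Slc5a1 it was -1.43 (SE 0.47, edgeR adjusted p = 0.0215) and -1.42 (SE 0.47, adjusted p = 0.0122), with -1.60 and -1.11 in series 1 and 2 at day 4 and -1.92 and -0.84 at day 7. The Slc5a1 call was lost at day 4 without the libraries of replicate number 1 and within each series. At day 7 it was lost without those of replicate number 2 and within series 2. The day 4 call of Slc15a1 was lost within series 1. Slc15a1 thus rose in colon where its jejunum change did not pass, and the estimates for Slc5a1 were negative in jejunum and positive in colon at both days, of which the day 4 fall and the day 7 rise passed. At day 7 Slc15a1 remained far higher in jejunum, at 1273 ± 648 CPM against 64.7 ± 25.7 CPM in colon (SD, n = 6 each). For Mgam the difference was 0.09 and 0.03 (SE 0.51 at both days), which did not pass. The other 7 members are at the lower limit of counting in colon.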

How the data were processed

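The values were raw counts per gene that the authors deposited for 132 libraries in 2 count tables, per the file headers, with 36 of 168 library columns shared by both tables and identical there. Reads came from a DNBSEQ-G400 instrument, per the labels' protocols. STAR 2.7.10a and the genome build mRatBN7.2 are named in the submitters' processing notes. The read counter, the annotation, the strand setting and the treatment of reads shared by paralogs were not stated by the sources used.

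Genes were tested with edgeR 4.0.16 in R 4.3.3 (limma 3.58.1): trimmed-mean scaling, filtering of low counts by group, a quasi-likelihood fit and Benjamini-Hochberg adjustment over all genes tested, with genes called at an adjusted p under 0.05. The standard error is the absolute log2 change over the square root of F. Separate fits covered the oral and untreated libraries of each tissue (42, with library series as a term), the injected libraries of each tissue (24) and the non-irradiated, untreated and orally treated libraries of both tissues (84, with series by tissue). No fit dropped or imputed a library. Of the members, 10 passed the filter in jejunum, 4 in oral colon and 3 in injected colon. Levels are CPM (counts-per-million) with scaling factors over all 132 libraries, and log2 levels have a prior count of 2. Gene lengths were not used, so levels were not compared between genes.

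The members and the 14 other lists were chosen with earlier results of these data known, so list counts support nothing on their own. Named genes were the 10 members, the 3 called genes of each list with the largest change, and the 3 genes most correlated with each member among those with a mean of at least 5 CPM. Hoxd10 and Hoxd13 are from the lists, and the genes most like Slc15a1 in colon were added after its values were seen. The scripts were tested on simulated counts. DESeq2 1.42.0, no filter, a replicate block, no series term, the mitochondrial share as covariate, other sample sets and leaving out replicates were tried as alternatives. Fits within each library series and the powder by day contrast were added after seeing the data. Ca4 and AABR07006030.1 stand for Car4 and Muc2. Promoters are from RefSeq (GRCr8), not the build of the counts; Treh was not matched. One gene among those most like a member is not reported here.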

Additional observations from a re-analysis of the deposited data

Results flagged for a closer look

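Of 142 groups of 6 libraries tested for a single distant library, 12 had one, where chance alone gives about 1 in 20. Of these, 8 concern replicate 6 of the injection group in jejunum at day 7. There Lct was 1.11 CPM against 79.9 to 687 CPM in the other libraries, Si 51.4 against 1550.0 to 4565 CPM, Mgam 145 against 767 to 1880.4 CPM and Treh 15.7 against 167 to 472 CPM. In the same library Alpi was 285 against 1268 to 2602 CPM, Slc5a1 322 against 1064 to 2180.5 CPM, Slc2a2 8.89 against 137 to 380.0 CPM and Slc2a5 4.64 against 43.0 to 127 CPM. Its summed immune genes were 46.2 CPM and its microvillus genes 5871 CPM, and what sets it apart was not tested.

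Replicate 4 of the oral vehicle group in jejunum at day 4 was the lowest for Si, at 559 against 2621 to 4421 CPM, for Mgam, at 353 against 1236 to 1773 CPM, and for Slc2a2, at 120.4 against 301 to 514 CPM. In untreated colon at day 4, replicate 6 was the highest for Slc5a1, at 41.4 against 24.4 to 29.3 CPM.

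The response to irradiation differed between jejunum and colon by the test of the difference for Slc15a1, at -4.19 on the log2 scale at day 4 and -8.08 at day 7. It also differed for Slc5a1, at -1.43 and -1.42, where the calls were lost in some alternatives. These genes were 2 of 10 members at each day, beside 21.8% and 39.6% of all genes.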

How the results depend on the processing

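Over the 42 member values called, DESeq2 kept all 42 and the replicate block kept 41, losing Treh in jejunum at day 7. Between the groups compared, replicate numbers did not pair the libraries: 48 of 156 pairs correlated above 0.1, and no comparison had all its pairs there. With the replicate block the members called after irradiation were 3 in colon and 4 in jejunum at day 4, and 2 and 5 at day 7. Between colon and jejunum, 19 of 42 same-numbered pairs correlated above 0.1, and in 15 the own number correlated best. Whether these libraries share rats was not settled, and the main fit of both tissues did not pair them. Of 534 tries in all, 474 kept direction and call, 59 lost the call and 1 reversed: Slc5a1 in colon at day 7, -0.37 with the mitochondrial share as covariate. That share did not overlap between the groups of this contrast, so the fit cannot set it well apart from irradiation.

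Counts of called members after irradiation moved by over 1.5 times as follows, and the cause was not tested beyond the fewer libraries of each series. With the mitochondrial share they were 1 in colon at day 4 and 0 at day 7, and without the filter 4 in colon at day 7 and 2 in jejunum at day 4. In series 1 they were 0 in colon and 0 in jejunum at day 4 and 1 in jejunum at day 7, and in series 2 they were 1 in colon at day 7 and 2 in jejunum at day 4. The tissue difference gave 0 in series 1 and 1 in series 2 at day 4, and 1 in series 2 at day 7. Between days, untreated colon gave 2 without the filter, series 1 gave 1 in jejunum for the untreated, oral vehicle and powder groups and 2 in powder colon, series 2 gave 0 in oral vehicle colon, and DESeq2 gave 1 in injection colon. The powder in colon at day 4 gave 0 within series 1 and 0 within series 2, and powder by day gave 1 with DESeq2.

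Leaving out each replicate number, counts after irradiation ran from 1 to 3 and stayed at 2 in colon (day 4, day 7) and ran from 2 to 4 and 3 to 8 in jejunum. Between days they ran from 1 to 2, 1 to 1 and 1 to 2 in colon (untreated, oral vehicle, powder), 0 to 0 and 0 to 2 (injected vehicle, injection), and from 2 to 3, 2 to 5, 2 to 2, 1 to 3 and 2 to 2 in jejunum in that order. The powder in colon at day 4 stayed at 1, the tissue comparison at 10, and its difference ran from 1 to 2 and 1 to 3. All other treatment comparisons stayed at 0. Depth limits Slc15a1 in non-irradiated colon, with 46 counts over 6 libraries, and 7 other members in colon.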

Other observations

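In colon at day 4, Slc15a1 and S100a9, a neutrophil gene, were high in much the same libraries, a pattern picked after the values were seen. In untreated rats Slc15a1 had 0.843, 4.12, 0.698, 33.3, 9.76 and 19.5 CPM in replicates 1 to 6, and S100a9 had 8.61, 24.2, 5.94, 65.1, 40.2 and 87.3 CPM. With the oral vehicle Slc15a1 had 22.4, 0.949, 3.09, 5.19, 58.1 and 44.3 CPM, and S100a9 had 36.5, 4.07, 14.8, 13.4, 93.8 and 41.7 CPM. With the powder S100a9 was 2.12 to 18.0 CPM. Over the 66 colon libraries, which share groups and scaling, their log2 levels had a Pearson correlation of 0.79, and 0.77 within groups, which ranked S100a9 as number 261 of 9544 genes by likeness to Slc15a1. The genes most like Slc15a1 there were Gpr4 (0.94), a proton-sensing receptor, Raly (0.93), an RNA-binding protein, and Sct (0.93), the hormone secretin. What links these levels was not tested.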
